A study of Homo sapiens with 8 samples.

Results

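The 7 histone genes described here are HIST1H1C, HIST1H2AC, HIST1H2BD, HIST1H2BK, HIST2H2BE, H2AFX and H2AFZ, taken by their symbols from a table of 29991 entries. All 7 were found, each on 1 entry. The RNA came from MCF10A, an immortalised, non-tumorigenic human breast epithelial line, and only polyadenylated RNA was sequenced. Cells received a control siRNA (siControl), siRNA targeting LATS1 and LATS2, kinases of the Hippo pathway (siLATS1/2), siRNA targeting the tumour suppressor p53 (sip53), or both together (siLATS1/2/p53), with 2 libraries in each of the 4 groups. Per the labels, libraries numbered 1 and 2 come from separate batches of cells, so each replicate 1 shares its cells' batch with the other replicates 1. An siRNA lowers its target for a limited time and not completely, and all groups share 1 cell line. In bulk RNA, a smaller share of cells in a given cell cycle phase and less RNA per cell cannot be told apart.

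Histones are the proteins around which DNA is wound: H2A, H2B, H3 and H4 form the core of the nucleosome, and H1 linker histones bind the DNA between cores. Most core histone genes sit in clusters, are transcribed in S phase together with DNA replication, and make messages that end in a conserved stem-loop instead of a poly(A) tail. Stem-loop binding protein and the U7 small nuclear RNP cut these messages just after the hairpin, so a library made from poly(A) RNA largely misses them. Replacement histones such as H2A.Z (H2AFZ) are made outside S phase too, from ordinary polyadenylated messages. Some cluster genes, HIST1H2AC, HIST1H2BD, HIST1H2BK, HIST2H2BE and HIST1H1C among them, also make polyadenylated messages, a form known from cells that leave the cell cycle or differentiate. H2AFX, which encodes the H2A.X protein that is phosphorylated beside DNA breaks, can make both kinds of message.

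The hairpins are shown first because messages cut just after them are largely missed in poly(A) RNA. Transcripts of the GENCODE release 29 annotation (GRCh38) were searched for the histone stem-loop, and 34 of 19932 protein-coding genes held it, 31 of them among the 71 genes with a HIST symbol. Of the 7 genes, 4 had it in at least 1 annotated transcript. The lines below give it as DNA, 5′ to 3′, with the 16 bases of the hairpin in capitals.
HIST1H2AC: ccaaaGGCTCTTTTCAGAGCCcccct
HIST2H2BE: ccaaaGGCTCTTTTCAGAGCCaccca
HIST1H2BD: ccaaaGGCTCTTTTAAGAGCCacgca
H2AFX: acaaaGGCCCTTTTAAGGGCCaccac
Of the annotated HIST1H2AC transcripts, a protein-coding one of 1462 bases held neither the hairpin nor a polyadenylation signal near its end. The HIST1H2AC transcript of 1654 bases runs on for 1114 bases past the hairpin. It carries the polyadenylation signal AATAAA starting 15 bases from its end. HIST2H2BE is alike, with 1729 bases past the hairpin in a transcript of 2194 bases and AATAAA starting 24 bases from the end. H2AFX continues for 1044 bases past its hairpin, with the variant signal ATTAAA starting 45 bases from the end of a 1614-base transcript. HIST1H2BD has a transcript of 496 bases with the hairpin and another of 789 bases without it, both with AATAAA near the end. The replacement gene H2AFZ held no hairpin and had AATAAA starting 20 bases from the end. The annotated transcripts of HIST1H1C (642 bases) and HIST1H2BK (381 bases) held neither sequence, and no match says only that these letters are not in these transcripts. Both are as long as their whole annotated genes. The HIST1H2BK transcript ends before the base where the hairpin starts in HIST1H2BD (442) and HIST2H2BE (450). A hairpin or signal beyond an annotated end could not be found, so the counts of genes with the hairpin may be too low. How much of each measured level comes from which transcript form is not recorded in the deposited values.

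The values are read here as log2 expression, scaled by the authors, with everything below 5 set to 5, called the floor. Low values lay near an even step in each library; the step put the depth at 11.3 to 37.1 M reads and the floor at 14.6 to 50 reads, as estimates. The shallowest libraries were siControl replicate 1 and siLATS1/2/p53 replicate 1. A test needed 2 libraries above the floor, which 12315 entries met, among them 6 of the 7 genes; HIST1H2BD did not. LATS1 lay between 7.90 and 8.10 in the 4 libraries with siRNA against it and between 9.54 and 9.94 in the others. LATS2 lay between 8.63 and 8.81 against 9.74 to 10.22. CDKN1A, the p53 target that encodes the cyclin kinase inhibitor p21, lay between 9.82 and 10.16 with p53 siRNA and between 12.29 and 13.07 without it. All 7 epithelial markers were above the floor in every library, while 6 of 8 fibroblast markers and 6 of 7 blood and endothelial markers were at the floor in every library. Their summed linear levels above the floor were 87399 to 145563 for epithelial, 104 to 1026 for fibroblast (COL1A1 and DCN) and 148 to 502 for blood and endothelial markers (CD14), and their part in the results was not tested.

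Nearly all cluster histone genes were invisible in these libraries. Besides the 5 members with HIST symbols, the table held 70 HIST entries, of which 65 were at the floor in all 8 libraries, 3 rose above it in 1 library and 2 in more. Those 2 were 1 of the HIST2H2BF entries and HIST3H2A. Family members with near-identical coding sequence can share reads, and how the authors assigned such reads is not given in the sources used here, so values of single cluster genes are uncertain to that extent. The library kit does not keep strand. In GENCODE release 29 an antisense gene overlaps HIST1H2BD (AL353759.1) and another overlaps H2AFZ over 383 bases (AC097460.1). The processed pseudogene LARP1P1 overlaps HIST1H2BD on the same strand over 292 bases. Reads from these partners cannot be told apart.

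**Figure D1:**
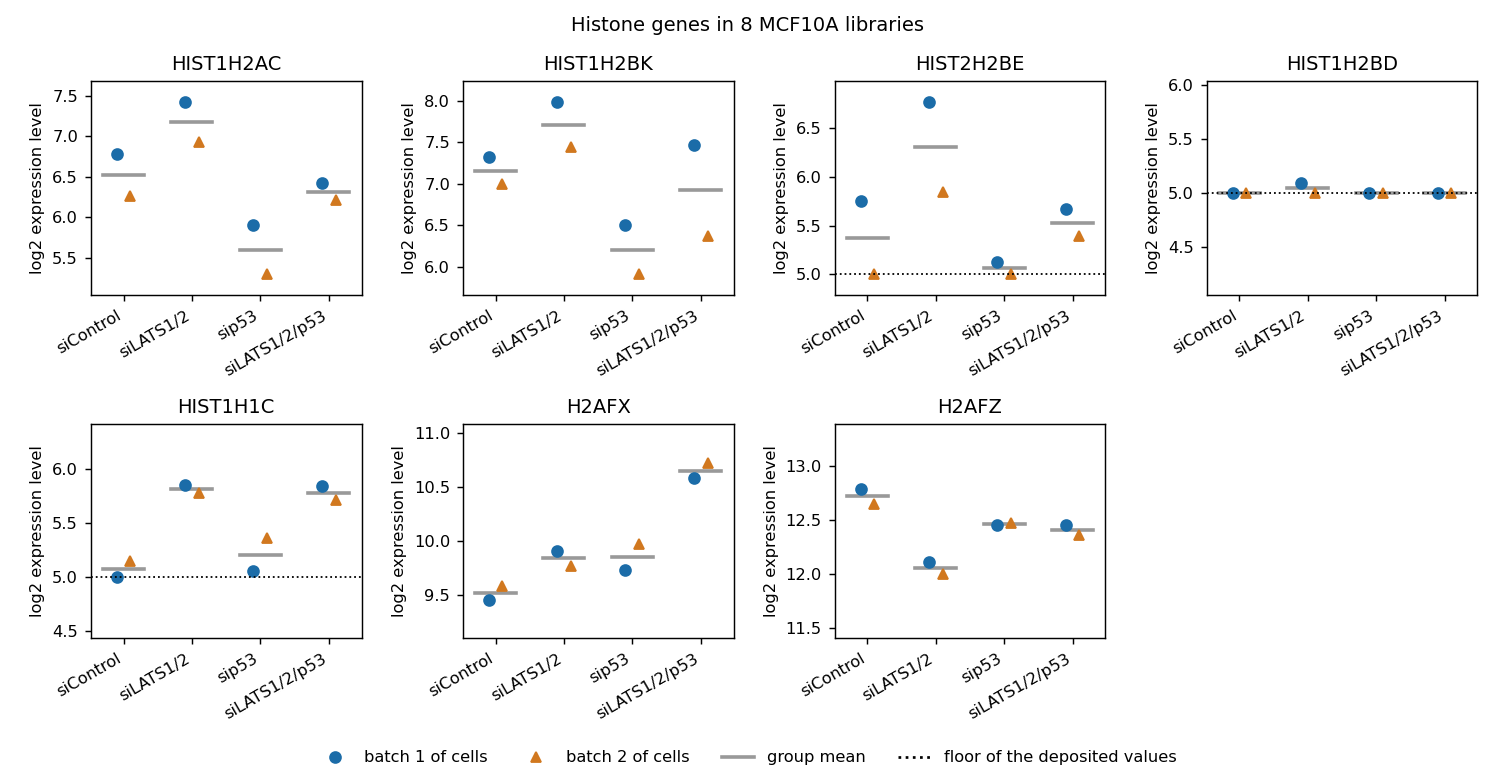
Log2 expression level (y axis) of the 7 histone genes in the 4 siRNA groups (x axis); circles are batch 1, triangles batch 2, grey bars the group means of 2 libraries, and the dotted line is the floor at 5 where it is in range. The group means of HIST1H2AC, HIST1H2BK and HIST2H2BE are highest in siLATS1/2 and lowest in sip53. For HIST2H2BE the order of sip53 and siControl is uncertain, since each has 1 library at the floor. HIST1H1C is higher in both groups with LATS1/2 siRNA, H2AFX is highest in siLATS1/2/p53 and H2AFZ lowest in siLATS1/2.

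LATS1/2 knockdown raised HIST1H1C and lowered H2AFZ among the 6 genes tested (limma, adjusted p under 0.05, no term for batch). Over all tested entries 2.81% rose and 4.89% fell (36.5% of the calls higher; 55.7% after rescaling by median differences), so 1 gene in each direction is too few to set apart. The median of the 6 was 0.61 on the log2 scale and that of all tested entries -0.07. With the batch of cells as a replicate block 5 of the 6 passed as higher and 1 as lower, where 10.5% and 21.4% of all entries did. After p53 knockdown limma called 0 of the 6. At an unadjusted p under 0.05, 1 was higher and 3 were lower, against 2631 of 12315 entries in either direction. Of all entries 1.76% rose and 2.10% fell (45.7% of the calls higher; 26.1% after rescaling), and the medians were -0.28 for the 6 and 0.06 for all. With the block 1 of 6 passed as higher (H2AFX) and 3 as lower (HIST1H2AC, HIST1H2BK and H2AFZ), against 16.0% and 10.0% of all entries.

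After combined knockdown HIST1H1C and H2AFX were higher than in siControl (2 of 6; 9.07% of all entries rose and 5.48% fell, with 62.3% of the calls higher and 47.5% after rescaling). With the block 2 of 6 passed as higher and 1 as lower, against 25.5% and 13.8% of all entries. Adding p53 siRNA to LATS1/2 siRNA raised H2AFX and H2AFZ (2 of 6; 11.3% of all entries rose and 3.22% fell, with 77.9% of the calls higher and 45.6% after rescaling). In this comparison rescaling takes off 0.16 on the log2 scale, more than in any of the others. With the block 2 of 6 passed there as higher and 3 as lower, against 33.8% and 9.72% of all entries. Adding LATS1/2 siRNA to p53 siRNA raised H2AFX (1 of 6; 2.54% of all entries rose and 1.12% fell), and with the block 4 of 6 passed as higher and 0 as lower, against 12.7% and 9.42%. The interaction, which asks whether the p53 siRNA effect differs with and without LATS1/2 siRNA, was called for 0 of 6 genes by limma, as for all entries (0.00% higher and 0.00% lower); 2 of the 6 (H2AFX and H2AFZ) and 807 of 12315 entries had an unadjusted p under 0.05. With the block 1 of 6 passed as higher and 0 as lower, against 1.75% and 0.276%. Comparisons with siControl share its 2 libraries.

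The H2A and H2B genes of the clusters come first. HIST1H2AC encodes a canonical H2A, and HIST1H2BD, HIST1H2BK and HIST2H2BE encode canonical H2B proteins that differ in few residues. Their promoters are printed because HIST1H2AC, HIST1H2BK and HIST2H2BE all had their highest group mean in siLATS1/2 and their lowest in sip53. For HIST2H2BE the order of sip53 and siControl is uncertain, since each had 1 library at the floor. Each line is the 200 bases before the RefSeq start (GRCh38.p14), 5′ to 3′ on the strand of the gene, with motif matches in capitals.
HIST1H2AC (chr6:26123972-26124171, plus strand): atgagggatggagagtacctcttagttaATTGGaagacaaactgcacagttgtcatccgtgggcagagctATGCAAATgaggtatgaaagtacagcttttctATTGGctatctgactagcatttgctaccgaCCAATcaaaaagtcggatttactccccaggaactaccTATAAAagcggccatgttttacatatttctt
HIST1H2BK (chr6:27146859-27147058, minus strand): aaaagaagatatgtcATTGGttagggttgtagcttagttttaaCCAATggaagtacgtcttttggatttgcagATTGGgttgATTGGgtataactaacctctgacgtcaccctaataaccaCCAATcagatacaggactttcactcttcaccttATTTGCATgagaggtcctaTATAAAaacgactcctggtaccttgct
HIST2H2BE (chr1:149886683-149886882, minus strand): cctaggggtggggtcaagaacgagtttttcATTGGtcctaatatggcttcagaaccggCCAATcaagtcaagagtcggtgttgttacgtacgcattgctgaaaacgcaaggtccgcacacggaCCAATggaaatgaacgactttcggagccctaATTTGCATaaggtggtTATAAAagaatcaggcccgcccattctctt
HIST1H2BD (chr6:26157921-26158120, plus strand): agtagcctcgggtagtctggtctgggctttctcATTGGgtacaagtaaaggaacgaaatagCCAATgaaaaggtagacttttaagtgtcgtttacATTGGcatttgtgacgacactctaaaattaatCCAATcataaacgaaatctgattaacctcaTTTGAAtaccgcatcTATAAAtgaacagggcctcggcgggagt
The search covered both strands for the octamer ATTTGCAT (ATGCAAAT on the other strand), which binds OCT1 in H2B promoters, and for CCAAT, the TATA box TATAAA, the E2F sites TTTCCCGC and TTTGGCGC, and the cell cycle homology region TTTGAA. Matches were not required to be apart, and none of those printed overlap. The octamer was in 3 of the 7 promoters with an entry (HIST1H2AC, HIST1H2BK and HIST2H2BE) in 1.33% of 27326 promoters of the same length, and in 22 of 65 promoters (33.8%) of RefSeq genes with a cluster histone symbol, these genes included. It is thus common among cluster histone genes and not particular to these 3. In HIST1H2BK and HIST2H2BE it lay at the same place, from -46 to -39 counted from the start, with TATAAA just after it. CCAAT was in 7 of 7, against 28.9% of all and 83.1% of cluster histone promoters. TATAAA was in 6 of 7 (not in HIST1H1C), against 8.99% and 56.9%, and TTTGAA in 2 (HIST1H2BD and H2AFX), against 10.5% and 24.6%. Neither E2F sequence was in any of the 7, against 1.17% and 0.454% of all promoters. These matches are descriptions of the letters and show no binding.

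HIST1H2AC was 6.78 and 6.26 in siControl replicates 1 and 2, 7.43 and 6.93 in siLATS1/2, 5.90 and 5.29 in sip53, and 6.42 and 6.21 in siLATS1/2/p53, on the log2 scale. Both siLATS1/2 libraries were above, and both sip53 libraries below, every library of the other groups. The difference from siControl was 0.66 ± 0.29 (SE) in siLATS1/2 (adjusted p = 0.204) and -0.92 ± 0.29 in sip53 (adjusted p = 0.127). Replicate 2 lay below replicate 1 in all 4 groups, by 0.22 to 0.61. Within batches 1 and 2 the siLATS1/2 difference was 0.65 and 0.67 and the sip53 difference -0.88 and -0.96, and with the batch as a block both passed (adjusted p = 0.0084 and 0.0013). Against siLATS1/2, siLATS1/2/p53 differed by -0.86 (adjusted p = 0.0856, or 0.0011 with the block), and against sip53 by 0.72 (adjusted p = 0.245, or 0.0067 with the block). Against siControl the combined knockdown gave overlapping libraries and a difference of -0.20 (adjusted p = 0.678; 0.357 with the block).

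HIST1H2BK had the same order of group means as HIST1H2AC. Its values were 7.32 and 6.99 in siControl, 7.99 and 7.44 in siLATS1/2, 6.50 and 5.90 in sip53, and 7.47 and 6.37 in siLATS1/2/p53. The combined group was the most spread, with its replicate 1 above both siControl libraries and its replicate 2 below both. From siControl, siLATS1/2 differed by 0.56 ± 0.39 (adjusted p = 0.424; 0.0288 with the block) and sip53 by -0.96 ± 0.39 (adjusted p = 0.214; 0.0017 with the block). Within batches these differences were 0.67 and 0.45, and -0.83 and -1.09. The combined knockdown differed from siControl by 0.15 in batch 1 and by -0.62 in batch 2, a change of sign between batches (adjusted p = 0.725; 0.318 with the block). It differed from siLATS1/2 by -0.80 (adjusted p = 0.197; 0.0030 with the block) and from sip53 by 0.72 (adjusted p = 0.392; 0.0104 with the block).

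HIST2H2BE was near the floor, at 5.75 and 5 in siControl, 6.77 and 5.84 in siLATS1/2, 5.13 and 5 in sip53, and 5.67 and 5.40 in siLATS1/2/p53. Replicate 2 of siControl and of sip53 were at the floor, and every siLATS1/2 and siLATS1/2/p53 library was above it. The floor can thus only understate how far siLATS1/2 and siLATS1/2/p53 lay above siControl and sip53. The difference between sip53 and siControl could be larger, smaller or of the other sign. Where it was above the floor, the step of low values put it at 23 to 170 reads. Both siLATS1/2 libraries were above all others, by 0.93 ± 0.35 from siControl (adjusted p = 0.151), and with the block the difference passed (adjusted p = 0.0051; 1.02 and 0.84 within batches). The sip53 difference was -0.31 (adjusted p = 0.664), with 1 library of each group at the floor. The siLATS1/2/p53 difference from siLATS1/2 was -0.77 (adjusted p = 0.171; 0.0109 with the block).

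HIST1H2BD was above the floor in 1 library only, siLATS1/2 replicate 1 at 5.09, which was also the library of greatest estimated depth; it stayed at 5 in the other 7. It was not among the entries tested. Without the filter on low values its siLATS1/2 difference from siControl was 0.05. Both siControl libraries were at the floor, so that fit cannot show whether HIST1H2BD changed. HIST2H2BF, an H2B gene outside the 7 that the table holds on 2 entries, had 1 entry above the floor in all 8 libraries and the other in 1. That entry rose by 1.28 ± 0.25 in siLATS1/2 against siControl (adjusted p = 0.0285) and differed by 0.04 in sip53 (adjusted p = 0.960). Its difference in siLATS1/2/p53 was 0.81 from siControl (adjusted p = 0.0715; 0.0067 with the block) and 0.78 from sip53 (adjusted p = 0.158; 0.0154 with the block). HIST3H2A was above the floor only in the 2 siLATS1/2/p53 libraries, at 5.38 and 5.19.

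HIST1H1C, which encodes the linker histone H1.2, was 5 and 5.15 in siControl, 5.85 and 5.79 in siLATS1/2, 5.06 and 5.36 in sip53, and 5.85 and 5.72 in siLATS1/2/p53. Every library with LATS1/2 siRNA was above every library without it. HIST1H1C rose by 0.74 ± 0.18 in siLATS1/2 (adjusted p = 0.0494) and by 0.70 ± 0.18 in siLATS1/2/p53 (adjusted p = 0.0392), against siControl, of which replicate 1 was at the floor, so both are understated. The first call was lost without any 1 of the 8 libraries (adjusted p = 0.0598 to 0.221) and the second without either library of siControl, siLATS1/2 or siLATS1/2/p53 (0.0576 to 0.149) and after rescaling (0.63, adjusted p = 0.0569). Both passed with the block (adjusted p = 0.0095 and 0.0097). Between siLATS1/2/p53 and siLATS1/2 it differed by -0.04 ± 0.18 (adjusted p = 0.908), and between siLATS1/2/p53 and sip53 by 0.57 (adjusted p = 0.146; 0.0457 with the block). The estimated reads behind its values above the floor were 26 to 90.

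H2AFX was 9.46 and 9.59 in siControl, 9.91 and 9.77 in siLATS1/2, 9.74 and 9.98 in sip53, and 10.58 and 10.73 in siLATS1/2/p53. The combined libraries were above all others, siControl was below all others, and the single knockdowns overlapped each other. H2AFX rose by 1.13 ± 0.12 in siLATS1/2/p53 against siControl (2.19-fold, adjusted p = 0.0023), by 0.81 ± 0.12 against siLATS1/2 (adjusted p = 0.0083) and by 0.80 ± 0.12 against sip53 (adjusted p = 0.0161). The single knockdowns gave 0.32 ± 0.12 for siLATS1/2 (adjusted p = 0.148; 0.0232 with the block) and 0.33 ± 0.12 for sip53 (adjusted p = 0.169; 0.0225 with the block). The combined difference thus exceeded the sum of the single ones by 0.48 ± 0.17, an interaction that did not pass (adjusted p = 0.740; 0.0901 with the block) and was 0.40 and 0.56 within batches. The combined call against siControl held without each of the 8 libraries in turn, with differences of 1.06 to 1.20. It was lost without the 2 shallowest together, where the difference was 1.14. That fit left 1 library in each of these groups, so it cannot decide the call. The call against siLATS1/2 was lost without either siLATS1/2 library or siLATS1/2/p53 replicate 1 (0.0564 to 0.0723). Leaving out either library of siLATS1/2, sip53 or siLATS1/2/p53 ended the one against sip53 (0.0515 to 0.122).

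H2AFZ encodes H2A.Z, the H2A variant found at the nucleosomes beside transcription start sites. It was 12.79 and 12.65 in siControl, 12.11 and 12.01 in siLATS1/2, 12.46 and 12.48 in sip53, and 12.45 and 12.36 in siLATS1/2/p53. Both siControl libraries were above, and both siLATS1/2 libraries below, all others. H2AFZ fell by 0.66 ± 0.09 in siLATS1/2 (1.59-fold lower, adjusted p = 0.0082). Leaving out siControl replicate 1 (adjusted p = 0.0504) or either siLATS1/2 library (0.0743 and 0.0753) ended that call. With p53 siRNA alone it differed by -0.25 ± 0.09 (adjusted p = 0.152; 0.0130 with the block), and with both by -0.32 ± 0.09 (adjusted p = 0.0503; 0.0020 with the block). Against siLATS1/2 it rose by 0.35 ± 0.09 in siLATS1/2/p53 (adjusted p = 0.0373), but after rescaling the difference was 0.19 (adjusted p = 0.183). That call was also lost without either library of siLATS1/2, sip53 or siLATS1/2/p53 (0.0684 to 0.166). The p53 siRNA effect was thus -0.25 without and 0.35 with LATS1/2 siRNA, an interaction of 0.60 ± 0.12 (adjusted p = 0.740 without and 0.0097 with the block; 0.68 and 0.53 within batches).

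**Figure D2:**
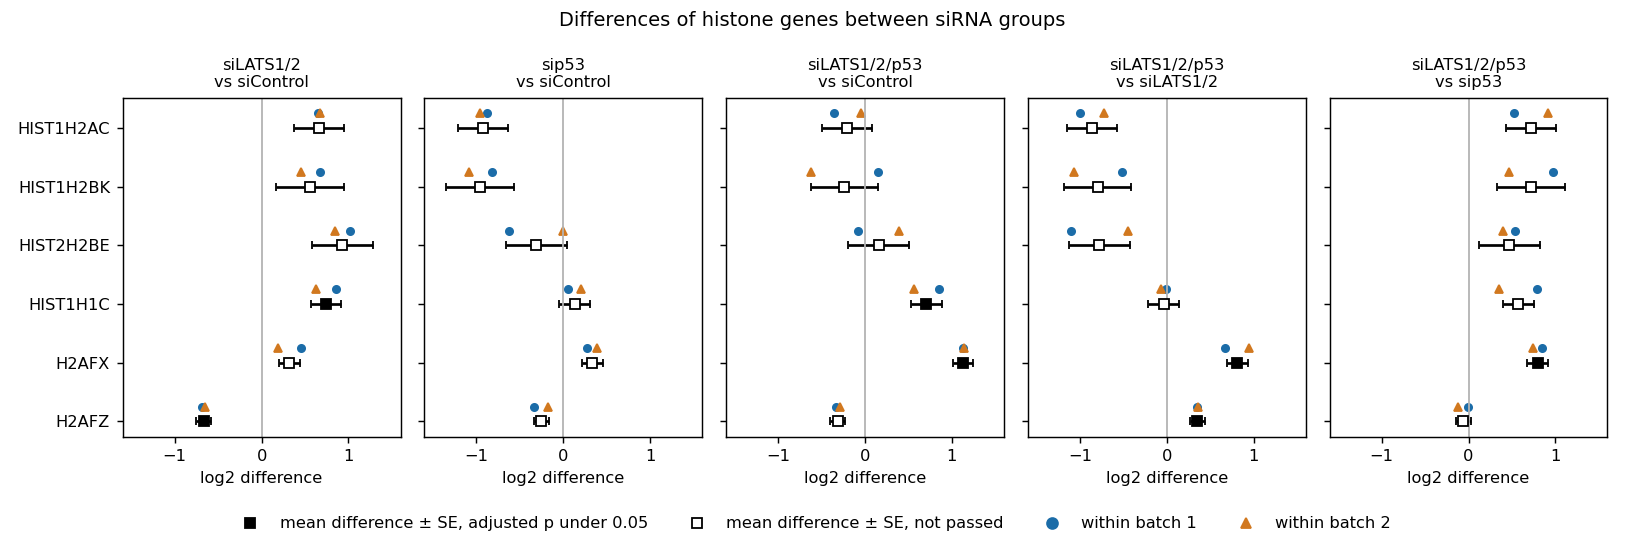
Log2 difference (x axis) of the 6 tested histone genes (y axis) in 5 comparisons; squares are mean differences with their SE from limma, filled where the adjusted p is under 0.05, and circles and triangles are the differences within batches 1 and 2. HIST1H2AC and HIST1H2BK lie right of 0 in both batches for siLATS1/2 against siControl and siLATS1/2/p53 against sip53, and left of 0 for sip53 against siControl and siLATS1/2/p53 against siLATS1/2, while H2AFX lies right of 0 in all panels and H2AFZ has the narrowest error bars.

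The genes whose values followed each histone gene most closely over the 8 libraries are given as a description, among 4889 tested entries with an SD of at least 0.25. All libraries share a cell line, and same-numbered libraries share a batch. For HIST1H2AC these were C1orf74 (Pearson r = 0.983), FAP (0.983) and SLC26A11 (0.979), and for HIST1H2BK they were NUAK1 (0.987), C12orf23 (0.986) and GPR137B (0.981). SEMA3B (0.979), FBN2 (0.975) and SLC7A11 (0.963) were nearest to HIST2H2BE, and TEAD1 (0.966), OLR1 (0.964) and SEMA7A (0.961) to HIST1H1C. H2AFX was nearest to FBXL19 (0.980), PLAUR (0.966) and C8orf47 (0.963), and H2AFZ to PEX10 (0.974), KCNJ15 (0.967) and AFF4 (0.965). No histone gene was among the 3 nearest of another. Between the histone genes themselves, r was 0.934 for HIST1H2AC with HIST1H2BK, 0.892 for HIST1H2AC with HIST2H2BE and 0.831 for HIST1H2BK with HIST2H2BE. It was -0.780 for HIST1H1C with H2AFZ.

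Other histone variants made outside the S phase clusters were measured on single entries for 7 genes. After LATS1/2 knockdown CENPA, the centromeric H3 variant, fell by 1.01 ± 0.13 (adjusted p = 0.0082), and the other 6 did not pass. Knockdown of p53 raised H1FX, a linker histone gene (0.55 ± 0.11, adjusted p = 0.0441). After combined knockdown H1FX (0.56), H2AFJ (0.66) and H2AFV (0.49), which encodes a second form of H2A.Z, rose, and the macroH2A gene H2AFY fell by 0.30. Against siLATS1/2, 5 of the 7 rose in siLATS1/2/p53: H1FX (0.71), H2AFJ (0.61), H2AFV (0.69), H2AFY2 (0.59) and CENPA (0.84). In that comparison 11.3% of all entries rose, and rescaling takes 0.16 off each difference. Whether each of these calls holds after rescaling is not given here. Of all entries 4.89% fell after LATS1/2 knockdown and 1.76% rose after p53 knockdown, while 9.07% rose and 5.48% fell after combined knockdown. H2AFV and H2AFZ, which encode near-identical proteins, thus had differences from siControl of opposite sign in sip53, 0.35 (adjusted p = 0.0734; 0.0048 with the block) and -0.25. With the block H2AFY2 also passed against siControl, at 0.33 in sip53 (adjusted p = 0.0395, 0.214 without) and 0.41 in siLATS1/2/p53 (0.0084, 0.0814 without). CENPA did at -0.41 in siLATS1/2/p53 against sip53 (0.0265, 0.151 without). The remaining variant, H3F3C, did not pass in any comparison. Neither did the 2 entries of the H3.3 gene H3F3B, except with the block (-0.35 and adjusted p = 0.0036 in siLATS1/2, and -0.26 and 0.0167 in siLATS1/2/p53, against siControl for entry 2; 0.46 and 0.0104 against siLATS1/2 for entry 1).

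DNA replication genes and the genes that make, cut and carry histones are given as the setting in which the histone messages lay. Of 40 replication genes 13 fell after LATS1/2 knockdown (32 with the block), where 4.89% of all entries fell (21.4% with the block). Among them were GINS2 (-0.80), MCM6 (-0.53) and DSCC1 (-0.62), while HIST1H2AC, HIST1H2BK and HIST2H2BE had their highest group means there. After p53 knockdown 12 of the 40 rose (30 with the block; 1.76% and 16.0% of all entries), with RRM2 (0.71), CDC6 (0.61) and CDT1 (0.77) at the smallest p-values, while HIST1H2AC and HIST1H2BK had their lowest group means. Combined knockdown raised 12 against siControl (26 with the block, and 1 lower), with RRM2 at 1.10, CDT1 at 0.87 and CDC6 at 0.60. Of all entries 9.07% rose there (25.5% with the block). Against siLATS1/2 it raised 35 of 40 (36 with the block), with RRM2 at 1.05, MCM2 at 0.81 and ORC1 at 0.95, where 11.3% of all entries rose (33.8% with the block). None of the 40 passed between siLATS1/2/p53 and sip53 with limma, where 2.54% of all entries rose and 1.12% fell. At an unadjusted p under 0.05, 6 were lower and 2 higher there, against 2216 of 12315 entries in either direction. With the block 7 of the 40 passed as lower and 2 as higher, against 9.42% and 12.7% of all entries.

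Of the factors that transcribe histone genes or cut their messages 31 were tested. For the counts that follow, 4.89% of all entries fell after LATS1/2 knockdown and 1.76% rose after p53 knockdown. After combined knockdown 9.07% rose and 5.48% fell, while 11.3% rose against siLATS1/2 and 2.54% against sip53. Counts of 1 or 2 genes in a list are too few to set apart from these shares. CPSF2, a subunit shared by both kinds of 3′ end cleavage, fell by 0.38 after LATS1/2 knockdown, and the cyclin gene CCNE2, whose product drives histone transcription through NPAT, rose by 0.70 after p53 knockdown. Combined knockdown raised 3, CCNE2 (1.25), E2F1 (0.98) and CDK2 (0.36), and 9 against siLATS1/2, among them CCNE2 (1.03), E2F1 (0.86) and the cleavage factor gene CSTF2 (0.59). CCNE2 also rose by 0.55 in siLATS1/2/p53 against sip53. With the block 10 of the 31 passed as lower after LATS1/2 knockdown, 10 as higher after p53 knockdown, and 9 as higher and 3 as lower after combined knockdown. Against siLATS1/2 the block gave 17 higher and 1 lower, and against sip53 4 higher and 2 lower. Over all entries the block gave 21.4% lower after LATS1/2 knockdown, and 16.0% higher and 10.0% lower after p53 knockdown. After combined knockdown it gave 25.5% higher and 13.8% lower. The shares higher and lower were 33.8% and 9.72% against siLATS1/2, and 12.7% and 9.42% against sip53. Of 35 chaperone and remodeller genes 2 fell after LATS1/2 knockdown, MCM2 (-0.47) and YEATS4 (-0.72), and 4 rose after p53 knockdown, such as the assembly factor gene CHAF1B (0.57), TONSL (0.49) and RBBP7 (0.46). Combined knockdown raised 9 and lowered 1, with the H3-H4 chaperone gene ASF1B up by 1.02, TONSL by 0.54 and RBBP7 by 0.47. Against siLATS1/2, 15 of the 35 rose, such as ASF1B (1.34), MCM2 (0.81), which is on the replication list too, and CHAF1B (0.74). With the block 16 of the 35 passed as lower after LATS1/2 knockdown, 16 as higher and 2 as lower after p53 knockdown, and 12 as higher and 3 as lower after combined knockdown. Against siLATS1/2 the block gave 25 higher and 1 lower, and against sip53 2 higher and 3 lower. Of 19 genes that phosphorylate or read H2A.X, 3 fell after LATS1/2 knockdown (9 with the block) and 1 rose after p53 knockdown (6 with the block, and 1 lower).

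**Figure D3:**
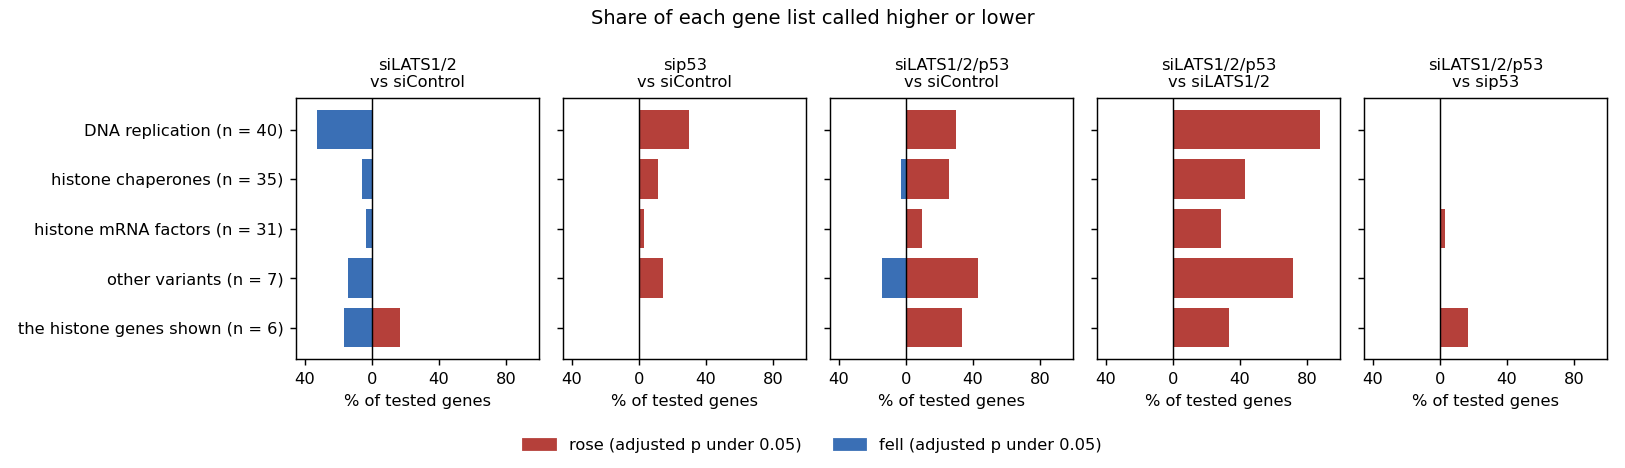
Share of the tested genes of each list (y axis, with the number tested) called higher (red, right of 0) or lower (blue, left of 0) at an adjusted p under 0.05, in percent (x axis), in 5 comparisons. Replication genes have 13 of 40 lower in siLATS1/2, 12 of 40 higher in sip53 and 35 of 40 higher in siLATS1/2/p53 against siLATS1/2. The histone genes described here have at most 2 of 6 called in a panel, too few for their share to be compared with those of longer lists.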

How the data were processed

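MCF10A poly(A) RNA was sequenced in 8 libraries. A TruSeq version 2 kit was used, per the labels' protocols, and the submitters' processing notes name TopHat and hg19. The deposited log2 values have a floor of 5 set by the authors; the read counter, the annotation and the scaling: not given in the sources used here. Each library's own file equalled its column of the series table in 8 of 8.

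Entries with 2 or more libraries over the floor (12315 of 29991; 17422 were at the floor in all) were fitted with limma 3.58.1 (R 4.3.3) with a mean-variance trend, 1 mean per group and 4 residual degrees of freedom, without a pseudocount. P-values were adjusted by Benjamini-Hochberg over all entries tested, with a threshold of 0.05. The procedure was tested on simulated data. Depth was estimated from the step of linear values under 80 and limits low genes most. Linear steps did not return whole reads, so no count test was run.

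Same-numbered libraries share a batch per the labels, and their deviations from group means correlated by 0.565 to 0.726 over the 6 pairs of groups. Values with the batch as replicate block are printed where they change a call of a histone gene. For the gene lists they are printed in the comparisons described, and other block counts of the lists, such as those for the interaction, are not. Named are the histone genes, the LATS genes, CDKN1A, other detected histone entries, up to 3 called genes per list and comparison with the smallest p, and the 3 closest entries by Pearson r. The gene encoding p53 and 1 further histone gene are not reported here. Members and lists were chosen with earlier results of these data known. Alternatives were the block, rescaling, filters, a pseudocount of 32, only the groups compared, no trend, each library left out and, added after seeing the data, leaving out the 2 shallowest.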

Additional observations from a re-analysis of the deposited data

Results flagged for a closer look

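H2AFZ was picked out because the effect of p53 siRNA on it differed between cells with and without LATS1/2 siRNA when the batch of cells was a replicate block. The interaction was 0.60 on the log2 scale (0.6031; adjusted p = 0.0097 with the block and 0.740 without it, by limma). Both sip53 libraries lay below both siControl libraries, and both siLATS1/2/p53 libraries lay above both siLATS1/2 libraries.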

How the results depend on the processing

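Counts of the histone genes called, out of 6 tested, rose with the batch of cells as a replicate block: from 2 to 6 for siLATS1/2 against siControl, from 0 to 4 for sip53 against siControl, from 2 to 3 for siLATS1/2/p53 against siControl, from 2 to 5 against siLATS1/2, from 1 to 4 against sip53 and from 0 to 1 for the interaction. Over all 12315 entries these comparisons had 948, 475, 1792, 1791, 451 and 0 calls without the block. With it they had 3937, 3199, 4832, 5361, 2720 and 250. For the same comparisons the block with rescaling by median differences gave 3473, 3049, 4717, 4205, 2830 and 112 of all entries. Of the histone genes it gave 6, 3, 3, 5, 3 and 1. With entries above the floor in all 8 libraries, where 4 of the genes were tested and HIST1H1C and HIST2H2BE were not, the count was 1 for siLATS1/2 and 1 for siLATS1/2/p53, both against siControl, and with a pseudocount of 32 it was 1 for the former. For siLATS1/2/p53 against siLATS1/2 it was 1 after rescaling and 1 without the mean-variance trend. With only the groups compared it was 1 for siLATS1/2/p53 against siControl. It was 0 for siLATS1/2 against siControl and for siLATS1/2/p53 against siLATS1/2 and against sip53. In these comparisons with 0 no entry of the whole table passed either, while 374 of 12315 passed for siLATS1/2/p53 against siControl. No interaction fit exists in that setting. Without the 2 libraries of least estimated depth, chosen after seeing the data, the count was 0 in every comparison, and no entry of the whole table passed in any of the 6. Leaving out each library in turn gave 0 to 1 for siLATS1/2 against siControl, 1 to 2 for siLATS1/2/p53 against siControl, 0 to 2 against siLATS1/2 and 0 to 1 against sip53. A fit with 1 library left out has 1 library in a group, and fewer entries of the whole table passed in most such fits. Differences that changed sign were all ones that had not passed. Leaving out each library in turn gave -0.021 to 0.28 for HIST1H1C and -0.69 to 0.063 for HIST2H2BE in sip53 against siControl. For siLATS1/2/p53 against siControl it gave -0.47 to 0.058 for HIST1H2AC, -0.79 to 0.32 for HIST1H2BK and -0.22 to 0.53 for HIST2H2BE, and against siLATS1/2 -0.10 to 0.029 for HIST1H1C. Without the 2 shallowest libraries HIST2H2BE was 0.063 in sip53 against siControl. Rescaling turned the interaction to -0.036 for HIST1H2AC, with and without the block. For HIST1H2AC the interaction was -0.048 with a pseudocount of 32, -0.25 to 0.36 with 1 library left out, and -0.31 without the 2 shallowest libraries. That of HIST1H2BK was -0.39 to 0.71 with 1 library left out and -0.56 without the 2 shallowest. The cause of these changes was not tested. Depth limits HIST1H1C, HIST1H2BD and HIST2H2BE most, since the floor hides lower values.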
